A study of Homo sapiens with 8 samples.

Results

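The 200 consecutive windows of 1 kb that lie within 100 kb of the annotated start of ZEB1 on either side (hg38, chromosome 10, 31218495 to 31418494) were described one by one, for 2 histone marks in 8 libraries. They are 200 of 2911546 windows of the same size on chromosomes 1 to 22 and X. Membership was set by position alone, and no measured value entered it. For each window and library, the covered share is the percent of its bases that lie under any peak deposited for that library.

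SUM159 cells, an established line of mesenchymal, triple-negative breast cancer, were used throughout. Native chromatin immunoprecipitation followed by sequencing (native ChIP-seq, in which the chromatin is not cross-linked) was performed with one antibody to H3K9me3, histone H3 trimethylated at lysine 9, and one to H3K4me3, trimethylated at lysine 4. All cells carried the lentiviral vector pLV-KRAB, which encodes dCas9-KRAB, a Cas9 without nuclease activity fused to a KRAB repressor domain. All gRNA cells also carried 4 guide RNAs against the ZEB1 promoter, whereas No gRNA cells, labelled as an empty vector control, had no targeting guide. For H3K9me3 these are called targeted and control cells. Each mark was measured in 2 All gRNA and 2 No gRNA libraries. The labels call them biological replicates but do not state whether cells were transduced separately, so the spread given here is the spread between libraries of transduced populations of a single cell line.

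ZEB1 is a zinc finger transcription factor that represses epithelial genes such as E-cadherin and drives the epithelial to mesenchymal transition. ZEB1-AS1 is a long noncoding RNA transcribed in the opposite direction from the same promoter region. The KRAB domain binds KAP1 (TRIM28), which brings in the methyltransferase SETDB1. SETDB1 writes H3K9me3, and the HP1 proteins that bind this mark can recruit further methyltransferase, which is how the mark is known to extend along neighbouring nucleosomes. H3K4me3, by contrast, marks nucleosomes around the starts of active genes, and many such starts lie in CpG islands.

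The 4 guide sites are shown because every distance that follows is read from them and from the ZEB1 start. They are printed as they stand in hg38, 5′ to 3′ on the strand that matched, with the PAM, the bases next to the site that Cas9 requires, in capitals.
Guide 1, minus strand, chr10:31319025-31319044: gggcggtttgcggcaaccgtGGG
Guide 2, minus strand, chr10:31319067-31319086: agaggctctcgctctacggcCGG
Guide 3, minus strand, chr10:31319117-31319136: cacctggtttacgacactccCGG
Guide 4, plus strand, chr10:31319209-31319228: agcatttagacacaagcgagAGG

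The intervals give the site without its PAM. The sites begin 530, 572, 622 and 714 bases downstream of the annotated ZEB1 start at 31318495, so all 4 fall in the first window downstream of the start, called the guide window below. Guides 1 and 2 lie in annotated exons of both ZEB1 and ZEB1-AS1. Guides 3 and 4 lie in an exon of ZEB1 and an intron of ZEB1-AS1. None of the 4 lies in coding sequence. ZEB1 (ENSG00000148516.23, 31318495 to 31529814, plus strand) fills the 100 windows downstream of the start. ZEB1-AS1 (ENSG00000237036.7, 31206278 to 31320447, minus strand) fills the 100 windows upstream and reaches 1.952 kb past the ZEB1 start. LINC02664, a long noncoding RNA on the plus strand, overlaps the outer 44 windows upstream, and 3 pseudogenes, RNA5SP309, SPTLC1P1 and ENSG00000285781, are also annotated within the windows.

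Over the whole genome the H3K9me3 libraries differed little in the length that their peaks covered. In targeted cells 321975 and 342875 H3K9me3 peaks covered 25.4% and 26.4% of the genome, while in controls 401362 and 410355 peaks covered 24.8% and 24.9%. For H3K4me3 the covered share of the genome ran from 21.4% to 32.0%. The labels of 2 of the 4 H3K4me3 libraries are contradicted by the names of their deposited files, which assign the library labelled All gRNA replicate 2 to the empty vector and the library labelled No gRNA replicate 1 to All gRNA. Labels were kept, and every H3K4me3 library is called by its label. Read depth is unknown for all 8, since peak lists hold no counts.

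H3K9me3 covered far more of the 200 windows in targeted cells than in controls. The covered share was 42.5% and 42.7% in the targeted libraries and 14.6% and 12.1% in the controls. The groups did not overlap, and the replicates of each group lay close together. The means were 42.6% ± 0.174 (SD, n = 2) in targeted cells and 13.3% ± 1.77 (SD, n = 2) in controls. The difference of 29.3 percentage points was larger than the pooled SD of 1.26. The two-sided exact permutation test gave p = 0.33, and 0.67 after Benjamini-Hochberg adjustment over 4 tests. With 2 libraries against 2 no comparison can give a p below 0.33. When the genome was divided into 14589 stretches of 200 windows, the median difference was -0.0858 points, and 31 stretches, the one at ZEB1 included, were higher in targeted cells by 29.3 points or more.

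**Figure D1:**
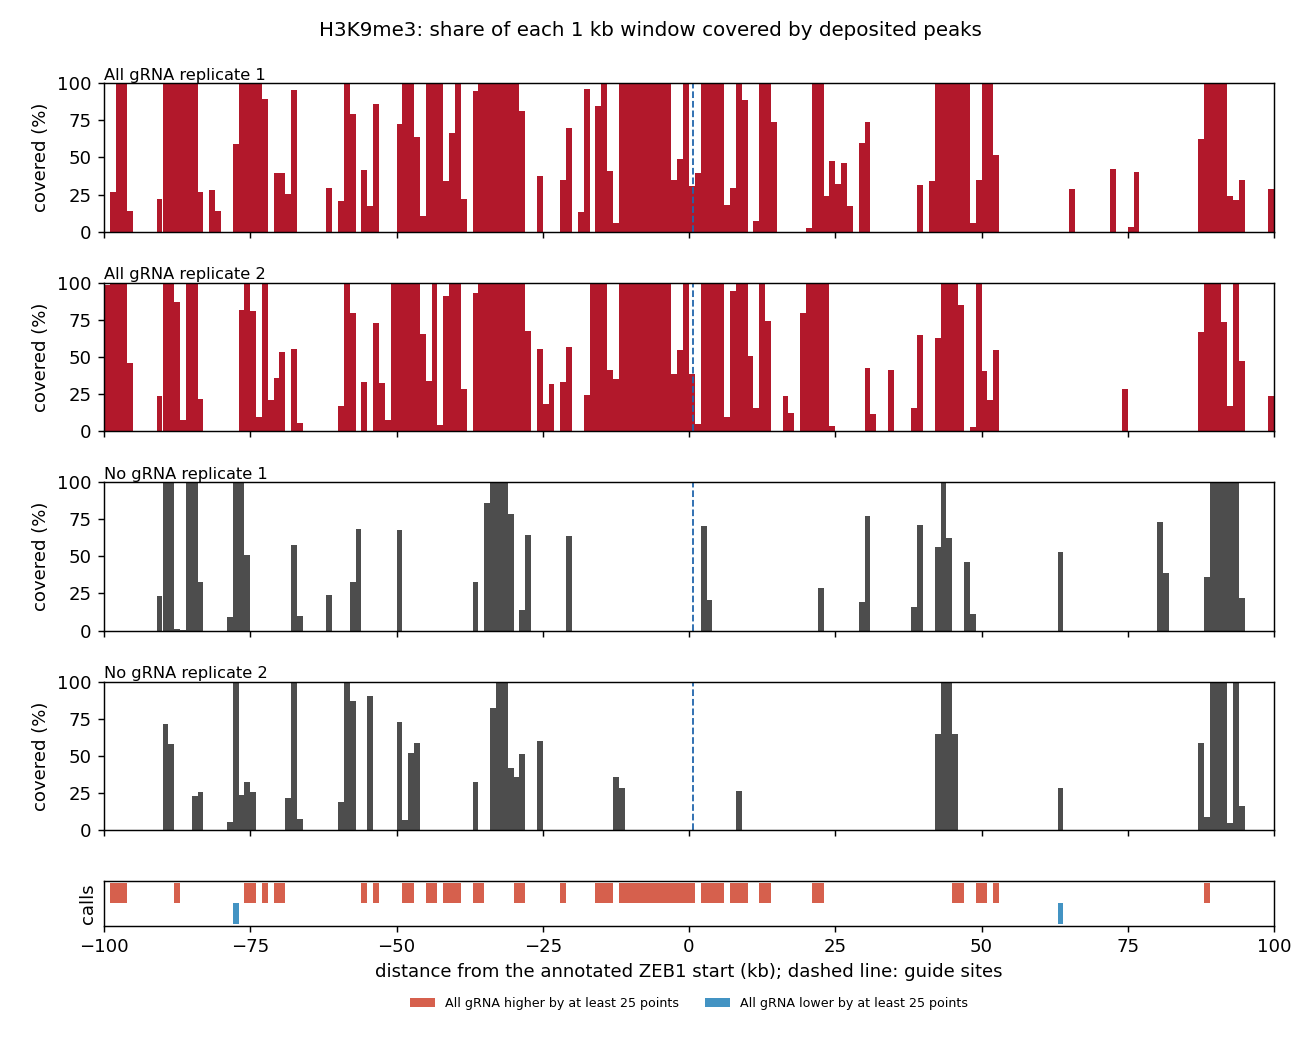
H3K9me3 covered share (%) of each of the 200 windows against distance from the ZEB1 start (kb), 1 panel per library, with the windows called higher or lower in targeted cells in the lowest strip and the guide sites as a dashed line. Both targeted libraries fill most windows from -12 to +6 kb, where the controls are almost empty, and beyond +55 kb 1 window is called higher and 1 lower.

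A window counted as called when 25 points or more separated the lower library of one group from the higher library of the other. By this rule H3K9me3 was higher in targeted cells in 56 of the 200 windows (28%), against 2.9% of all windows of the genome. It was lower in 2 windows (1%), against 2.02% of the genome. Of the 14589 stretches, 12 (0.0823%), again with the one at ZEB1, held at least 56 windows called higher, the median stretch held 4 and the highest 70. In 19 windows the mark covered 100% in both targeted libraries and 0% in both controls. At least 50% was covered in both targeted libraries and in neither control in 37 windows, and the reverse was found in 0 windows. Windows of the genome were not counted by these 2 rules, so the counts of 19 and 37 have no share to stand beside.

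With all deposited peaks, the difference was greatest next to the start and shrank with distance on both sides. In the 10 kb upstream of the start, H3K9me3 covered 88.4% and 89.3% in targeted cells and 0% in both controls, and all 10 windows were called higher. In the 10 kb downstream it covered 70.5% and 74.7% in targeted cells against 9.14% and 2.66% in controls, and 8 of 10 windows were called. These were the only bins of distance, of 8 compared, in which more than 50% of the windows were called.

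Farther downstream less was covered in targeted cells. Between +10 and +20 kb the covered share was 28.1% and 35.6% in targeted cells and 0% in both controls, with 2 of 10 windows called. Between +20 and +50 kb it was 40.3% and 37.6% against 16.3% and 10.98%, with 5 of 30 windows called. Between +50 and +100 kb the values were 18.7% and 15.5% against 14.4% and 10.3%. In that outermost bin the difference was 4.71 points, with a pooled SD of 2.63, and 3 of 50 windows were called.

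With all deposited peaks, more was covered upstream. Between -20 and -10 kb H3K9me3 covered 54.0% and 60.04% in targeted cells and 0% and 6.38% in controls. Between -50 and -20 kb it covered 62.9% and 69.3% against 23.6% and 23.1%, a difference of 42.7 points, and 12 of 30 windows were called. Between -100 and -50 kb it still covered 41.0% and 39.4% against 18.2% and 15.8%, with 11 of 50 windows called. No bin of the H3K9me3 profile had overlapping groups. Bins elsewhere in the genome were not compared this way, so this has no share to stand beside.

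**Figure D2:**
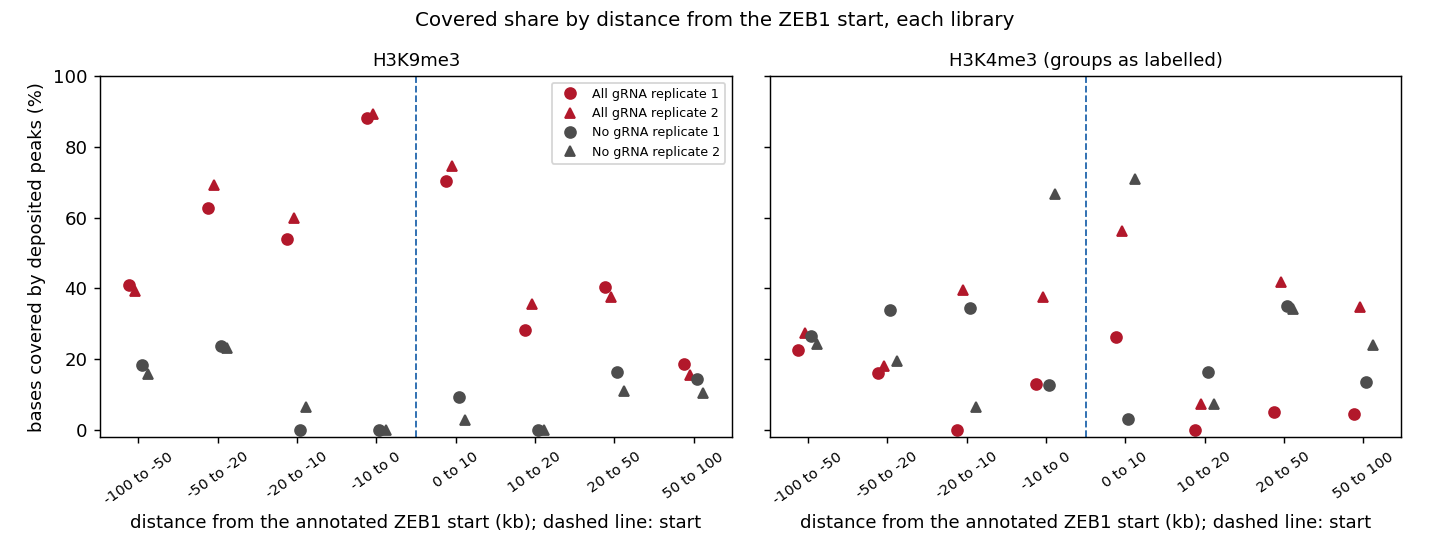
Percent of bases covered by deposited peaks in 8 bins of distance from the ZEB1 start (kb), with each library as a point, H3K9me3 left and H3K4me3 right. For H3K9me3 all points of targeted cells lie above all control points in every bin, from 88.4% and 89.3% against 0% at -10 to 0 kb down to 18.7% and 15.5% against 14.4% and 10.3% at 50 to 100 kb, whereas the H3K4me3 groups overlap in most bins.

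With all deposited peaks the profile was lopsided around the guides, a contrast not kept by both targeted libraries at q of 0.05 or less. Over the whole 100 kb upstream, H3K9me3 covered 53.6% and 55.4% in targeted cells and 16.2% and 15.5% in controls. Over the 100 kb downstream it covered 31.3% and 30.1% against 13.0% and 8.73%. The upstream share exceeded the downstream share by 22.3 and 25.4 points in targeted cells and by 3.16 and 6.74 points in controls. This contrast of the 2 sides was chosen after the values were seen and was not tested. Calls followed the same division, with 38 of 100 windows higher upstream and 18 of 100 downstream. With peaks of q of 0.05 or less alone, the difference between targeted cells and controls was 6.65 points upstream and 10.3 points downstream. The targeted libraries went opposite ways at this threshold. Replicate 1 was covered at 1.88% upstream and 11.5% downstream, and replicate 2 at 12.3% and 9.01%.

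Read against the genes, the upstream windows belong to ZEB1-AS1. Of the 102 windows that overlap ZEB1-AS1, 39 were called higher, with a covered share of 53.3% and 54.7% in targeted cells and 15.9% and 15.2% in controls. The outer windows, which ZEB1-AS1 shares with LINC02664, were covered less in targeted cells, at 43.4% and 39.1% against 20.7% and 15.9%, and 9 of 44 were called. The 58 windows that overlap ZEB1-AS1 but not LINC02664 were covered at 60.8% and 66.6% against 12.2% and 14.6%, and 30 of them were called. The portion of ZEB1 within 100 kb of its start, 100 windows, held 18 called windows.

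The windows called higher were not scattered singly near the guides. The longest unbroken run of called windows spanned 13 windows from -12 to +1 kb (31306495 to 31319494), and contained the guide window as its last member. H3K9me3 covered 85.7% and 87.0% of this run in targeted cells and 0% and 2.18% in controls. No other run of called windows on chromosomes 1 to 22 and X was as long, the longest elsewhere being 9 windows. A second run followed at +2 to +6 kb, with 100% in both targeted libraries and 22.9% and 0% in controls. It was followed by runs at +7 to +10 kb and +12 to +14 kb, and the next called windows downstream lay at +21 to +23 kb.

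The outermost called windows lay close to both ends of the region. Upstream they formed a run at -99 to -96 kb, covered at 75.6% and 100% in targeted cells and 0% in both controls. Downstream the farthest was a single window at +88 to +89 kb, covered at 100% in both targeted libraries and at 36.0% and 8.50% in controls. Called windows thus reached -99 kb. The outermost window upstream, at -100 to -99 kb, was not called, with 0% and 98.1% in targeted cells. What lies beyond the region was not measured here. The 2 windows called lower lay far from the start. One, at -78 to -77 kb, was covered at 58.8% and 0% in targeted cells and at 100% in both controls, and the other, at +63 to +64 kb, at 0% in both targeted libraries and at 52.9% and 28.4% in controls.

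No H3K9me3 peak lay over the guide sites themselves in any of the 4 libraries. In targeted replicate 1, a peak ended at 31318804 and the next began at 31320103, leaving 1298 bases uncovered, 220 of them upstream of the first guide base and 874 downstream of the last. In targeted replicate 2, a peak ended at 31318879 and the next began at 31320446, leaving 1566 bases uncovered, 145 upstream and 1217 downstream. The gap thus lay in the same place in both libraries, with its upstream edges 75 bases apart and its downstream edges 343 bases apart. In controls the uncovered stretch around the guides was 22568 and 20368 bases long.

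The gap coincided with the windows richest in CpG. The guide window had 85 CpG and a GC content of 68.5%, and the next window downstream had 136 CpG and 73.5% GC, the most of all 200, against a median of 6 CpG and 35.8% GC. H3K9me3 covered 31.0% and 38.5% of the guide window in targeted cells, and 39.2% and 4.90% of the next. In controls it covered 0% of both. The window just upstream of the start, with 25 CpG, was covered at 100% in both targeted libraries and at 0% in both controls. The 56 windows called higher had a median of 7 CpG and 38.6% GC, above the 5 CpG and 34.5% GC of the 144 windows not called higher. Whether base composition affected the recovery of reads in the gap was not tested.

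ZEB1 has 7 starts in RefSeq between 31318417 and 31321660, and the 250 bases before each start were read the same way. Those before the first start (31318167 to 31318416, 15 CpG) were covered by H3K9me3 at 100% in both targeted libraries and 0% in both controls. The same length before the start at 31319216, which holds guides 1 to 3 and part of guide 4, was covered at 0% in all 4 libraries. The lengths before the starts at 31318818 and 31320554 separated the groups as well, at 94.8% and 100% and at 100% and 43.2% in targeted cells against 0% in both controls. The length before the start at 31319768 was again at 0% in all 4. Before both starts farthest downstream, at 31321201 and 31321660, the mark covered 100% in both targeted libraries, but also 100% in control replicate 1 and 0% in control replicate 2. Thus 3 of the 7 separated the groups, 2 had no H3K9me3 peak in any library and 2 were shared with 1 control.

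Single peaks show how weak much of this signal was. Near the start, each targeted library held a wide peak upstream, at -12.1 to -2.65 kb with q = 0.0677 in replicate 1 and at -12.4 to -2.62 kb with q = 0.0349 in replicate 2. Their fold enrichment over the peak caller's background was 1.92 and 2.02. A narrower peak next to the guides, at -1.49 to 0.309 kb and -1.55 to 0.384 kb, had q = 0.208 in replicate 1 and q = 0.00953 in replicate 2, so the replicates agreed on its place and not on its rank. The peak downstream of the guides, at 1.61 to 6.18 kb and 1.95 to 6.09 kb, had q = 0.0299 and 0.0221, and a weaker one beyond it, at 7.71 to 9.88 kb and 7.06 to 10.5 kb, had q = 0.277 and 0.158. Control replicate 1 held a single peak within 10 kb, of 914 bases with q = 0.453, and control replicate 2 a single peak of 266 bases with q = 0.0666.

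Across the 200 windows the H3K9me3 lists held 36 and 35 peaks in targeted cells and 20 and 21 in controls. Their median length was 1568.5 and 1642 bases in targeted cells and 891 and 869 bases in controls, so here the peaks of targeted cells were more numerous and longer. Greater length was not particular to this region. Over chromosomes 1 to 22 and X, 284054 and 304735 peaks covered 25.4% and 26.4% in targeted cells. In controls more peaks, 364553 and 370024, covered 24.8% and 24.9%, so targeted peaks were longer on average there too. Fold enrichment ran from 1.39 to 2.24 over all 4 libraries. Only 4 and 5 peaks in targeted cells and 0 and 2 in controls had q of 0.05 or less. The peak with the lowest q was in a different place in each library. It lay at 41.7 to 48.1 kb in targeted replicate 1 (q = 0.016), next to the guides in targeted replicate 2, at -67.6 kb in control replicate 1 (q = 0.0803) and at -25.6 kb in control replicate 2 (q = 0.0126).

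When peaks with q of 0.05 or less were kept alone, the covered share of the 200 windows was 6.70% and 10.7% in targeted cells and 0% and 0.463% in controls. By the same rule 9 windows were then called higher, and 0.407% of the genome. They formed 2 groups, 4 windows at +2 to +6 kb and 5 windows at +42 to +47 kb, and none lay upstream of the start. With all deposited peaks the windows at +42 to +45 kb were not called, and control peaks covered each of them at 56.2% to 100%. Those control peaks had q = 0.421 in replicate 1 and q = 0.118 in replicate 2, so the threshold left them out. The wide upstream peak passed this threshold in targeted replicate 2 and missed it in replicate 1.

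The profile by distance had another shape at this threshold. From 0 to +10 kb the covered share was 45.7% and 45.3% in targeted cells and 0% in both controls, so this bin separated the groups with either set of peaks. From -10 to 0 kb it was 0% in targeted replicate 1 and 89.3% in targeted replicate 2, with 0% in both controls, so that the difference of 44.7 points came from 1 library and was 0 without it. Downstream the difference did not shrink steadily, being 45.5 points from 0 to +10 kb, 0 from +10 to +20 kb, 18.1 from +20 to +50 kb and 0.557 beyond. Upstream it was 11.8 points from -20 to -10 kb, 1.59 from -50 to -20 kb and 1.06 beyond. The 11.8 points also came from targeted replicate 2, at 23.5%, with 0% in the other 3 libraries.

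The width of the H3K9me3 domain depended on how small interruptions were treated. A run was counted as consecutive windows at least 50% covered, with a single window below 50% joined, that came within 2 windows of the guide window, and the longest was taken. It was 4 kb wide (+2 to +6 kb) in targeted replicate 1, 12 kb (-12 to 0 kb, with an equal run at +2 to +14 kb) in targeted replicate 2, 1 kb in control replicate 1 and 0 kb in control replicate 2. The means were 8 kb ± 5.66 (SD, n = 2) and 0.5 kb ± 0.707 (SD, n = 2), with p = 0.33 in the two-sided exact permutation test. On both sides of the guides 1 window decided where a run of replicate 1 stopped and a run of replicate 2 went on. The window at -2 to -1 kb was covered at 48.8% in replicate 1 and 54.7% in replicate 2, and the window at +7 to +8 kb at 29.1% and 94.3%. With up to 3 windows joined, the run was 36 kb (-21 to +15 kb) and 35 kb (-21 to +14 kb) in targeted cells and stayed at 1 kb and 0 kb in controls.

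Part of the H3K9me3 in the region was present without targeting guides. In 13 windows all 4 libraries were at least 50% covered, and in 54 windows no library had a peak. Of these 13, 3 were consecutive windows at +42 to +45 kb, within a ZEB1 intron that holds the pseudogenes SPTLC1P1 and ENSG00000285781. The middle window, with 64 CpG and 68.0% GC, was covered at 100% in all 4 libraries. Another block at -34 to -31 kb and one at +89 to +92 kb were covered in the same way. Next to the intronic block, the windows at +45 to +47 kb were covered at 100% and 92.4% in targeted cells and 0% and 32.3% in controls, so the block was wider in targeted cells.

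Replicates differed from each other by less than the groups did near the start, but not everywhere. The mean absolute difference per window was 16.2 points between the targeted libraries and 11.2 points between the controls. The targeted libraries lay within 25 points of each other in 149 of 200 windows and the controls in 165. The window at -78 kb, with 58.8% in one targeted library and 0% in the other, was among those where they did not.

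The H3K4me3 profile did not separate the groups as labelled, and the order depends on whether labels or file names are right. The covered share of the 200 windows was 11.8% and 31.5% under the All gRNA label and 23.6% and 27.6% under the No gRNA label. The libraries labelled All gRNA lay below and above both libraries labelled No gRNA. The means were 21.7% ± 13.9 (SD, n = 2) and 25.6% ± 2.84 (SD, n = 2), a difference of -3.96 points with a pooled SD of 10.0 and p = 1 in the two-sided exact permutation test. Over the genome, peaks covered 21.4% and 28.5% under the All gRNA label and 32.0% and 26.3% under the other. The library with the least cover at ZEB1 also had the least in the genome. The order did not hold for all, since the library with the most in the genome, at 32.0%, had 23.6% at ZEB1. Read by file name, the values at ZEB1 are 11.8% and 23.6% for All gRNA and 31.5% and 27.6% for the empty vector, which do not overlap. They are given as values alone, since groups were taken from the labels.

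**Figure D3:**
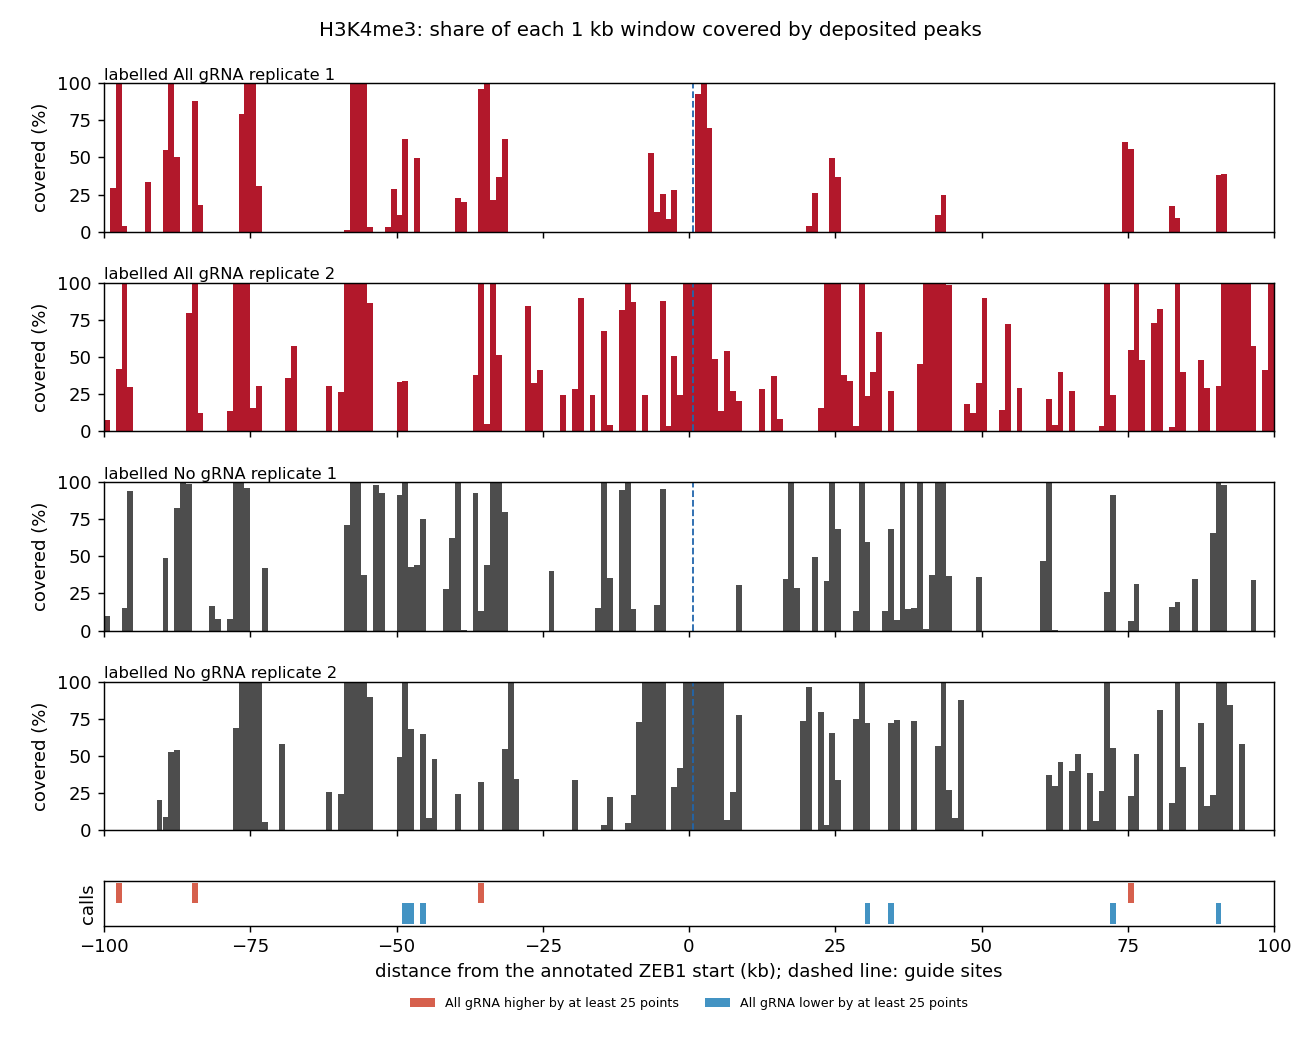
H3K4me3 covered share (%) of each of the 200 windows against distance from the ZEB1 start (kb), 1 panel per library as labelled, with calls in the lowest strip and the guide sites as a dashed line. The guide window is at 100% in the libraries labelled All gRNA replicate 2 and No gRNA replicate 2 and at 0% in those labelled replicate 1. No window within 10 kb of the start is called.

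By the same rule 4 windows (2%) were called higher in the libraries labelled All gRNA, against 2.62% of the genome, and 7 windows (3.5%) lower, against 4.99%. Both shares were below those of the genome. The windows called higher lay at -98, -85, -36 and +75 kb, and those called lower between -49 and -45 kb and at +30, +34, +72 and +90 kb. The widest gap was at -85 to -84 kb, where cover was 87.7% and 100% under the All gRNA label and 0% in both other libraries. None of the 11 lay within 10 kb of the start.

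At the start itself the H3K4me3 libraries divided by labelled replicate number and not by labelled condition. By file name the same division is by condition. In the guide window the mark covered 0% in the library labelled All gRNA replicate 1, 100% in that labelled All gRNA replicate 2, 0% in that labelled No gRNA replicate 1 and 100% in that labelled No gRNA replicate 2. A single peak crossed all 4 guide sites in both libraries labelled replicate 2. It ran from 31317254 to 31322979 in the library labelled All gRNA replicate 2 (q = 0.0191, fold enrichment 3.04) and from 31317074 to 31324562 in the library labelled No gRNA replicate 2 (q = 0.00105, fold enrichment 3.63). Each was the peak with the highest fold enrichment of its library in the 200 windows.

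The libraries labelled replicate 1 had no peak over the guides. In the library labelled All gRNA replicate 1, a peak from 31319570 to 31322191 (q = 0.268) began 341 bases downstream of the last guide base and covered 92.5% of the next window. The library labelled No gRNA replicate 1 had no peak over 12658 bases around the guides, between a peak ending at 31314445 and one beginning at 31327104. Both libraries with a peak over the guides carry file names of the empty vector, and both without one carry file names of All gRNA, so the label and the file name give different orders for this result. Which of them is right was not tested. Cover from 0 to +10 kb was 26.2% and 56.3% under the All gRNA label and 3.08% and 71.0% under the No gRNA label, and from -10 to 0 kb it was 12.8% and 37.7% against 12.7% and 66.6%. In both bins the values of the groups interleaved.

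The H3K4me3 run at the guide window was 3 kb and 9 kb wide under the All gRNA label and 0 kb and 7 kb under the No gRNA label, with p = 0.67 in the two-sided exact permutation test. The replicates labelled alike differed by a mean of 28.8 points per window in All gRNA and 29.8 points in No gRNA, more than the H3K9me3 replicates. In 9 windows at least 50% was covered in both libraries labelled replicate 2 and in neither labelled replicate 1. By file name both libraries labelled replicate 2 are of the empty vector. Both libraries labelled All gRNA and neither labelled No gRNA were so covered in 3 windows, and the reverse held in 5. Windows of the genome were not counted this way. With the groups as labelled, a change of H3K4me3 at the guides could not be told apart from the spread between libraries of the same label.

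Where H3K9me3 was called higher, H3K4me3 was present in some libraries and not in others. Over those 56 windows H3K4me3 covered 17.7% and 31.9% under the All gRNA label and 25% and 39.7% under the No gRNA label, against 11.8%, 31.5%, 23.6% and 27.6% over all 200. In the guide window and the window downstream of it, the library labelled All gRNA replicate 2 held H3K4me3 over 100% of the bases, where H3K9me3 in targeted cells covered at most 39.2%. The file name of that library gives the empty vector. The library labelled All gRNA replicate 1 held H3K4me3 over 0% and 92.5% of these windows, and that labelled No gRNA replicate 2 over 100% of both. The marks were measured in separate libraries, and whether they lay on the same molecules was not tested.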

How the data were processed

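One broad peak list per ChIP-seq library was deposited, with replicates not pooled. The lists deposited by the authors give, for each peak, a score in whole numbers, a ratio of fold enrichment, and −log10 values of p and q (the p-value and q-value of MACS2). Here q filters or describes peaks and score was not used. The methods of the study name fastp, bowtie2, removal of duplicates and MACS2 with an extension size of 200 on hg38, while the submitters' processing notes list bcl2fastq 2.17, Trimmomatic 0.33, Bowtie 1.1.2 and MACS2 2.1.0. This conflict was not resolved, and whether input was the control for peak calling is not given in the sources used here. Every list reached down to a −log10 p-value of 1.00, which means that peaks with p near 0.1 had been kept. No read counts are given, so depth is unknown and values carry no counting interval.

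Overlapping peaks of a library were joined, and the covered share of each 1 kb window was computed with Python 3.11.15 and numpy 2.4.6, tested on simulated data. All deposited peaks were used, with q filters as alternatives. Windows of the genome were laid in phase with those at ZEB1, and windows made only of unknown bases were left out. Groups came from the labels and were compared over libraries with a two-sided exact permutation test. Annotation was GENCODE release 44, and promoter starts came from RefSeq (GRCh38.p14). Guide sites were located by exact match of the published guides to hg38. Genes named are those overlapping the windows. Windows named are those near the guides, at the ends of runs, called with the largest gap or farthest out, and peaks named are those within 10 kb of the start or with the lowest q. The members, lists and tests were chosen with earlier results of these data known.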

Additional observations from a re-analysis of the deposited data

How the results depend on the processing

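The H3K9me3 difference of means over the 200 windows stayed above 0 in every alternative, but the q threshold set its size. It was 8.46 points with q of 0.05 or less and 0.483 points with q of 0.01 or less. At 0.01 a single H3K9me3 peak was left in the 200 windows, in All gRNA replicate 2 (q = 0.00953). The 0.483 points thus came from that library alone, and All gRNA replicate 1 was at 0% like both controls. The difference was 28.4 points when every library was held to the same covered length and 28.0 to 30.5 points with each library left out. The length called higher was 9 kb at q of 0.05 and 0 kb at 0.01, 37 kb with a gap of 50 points, and 62 to 75 kb with each library left out. The length called lower, 2 kb, was 0 kb at both q thresholds, with 2 kb windows and with a gap of 50 points, 1 kb with 500 base windows, 4 kb with any gap and 3 to 6 kb with libraries left out, the 6 kb being without No gRNA replicate 2. The difference in H3K9me3 run width, 7.5 kb, was 1 kb at q of 0.01, 17.5 kb with 500 base windows, 31 kb with 2 kb windows, 27.5 kb with windows shifted by 500 bases, 29 kb with windows counted from 25% cover, 35 kb with up to 3 windows joined and 3.5 to 11.5 kb with libraries left out, the lowest without All gRNA replicate 2 and the highest without All gRNA replicate 1. The H3K4me3 difference, -3.96 points, turned to 4.32 at equal covered length and ranged from -13.8 to 5.88 with libraries left out, being above 0 only without the library labelled All gRNA replicate 1. At equal covered length 5 of the 8 distance bins also turned, to 4.54 points between -100 and -50 kb, 8.49 between -50 and -20 kb, 16.9 between -20 and -10 kb, 2.26 between 10 and 20 kb and 1.92 between 20 and 50 kb. The difference in H3K4me3 run width, 2.5 kb, turned to -1 kb at q of 0.05, -3.5 kb at 0.01, -3.25 kb with 500 base windows, -3 kb with 2 kb windows, -1 kb from 25% cover and -1.5 kb with up to 3 windows joined, and ranged from -1 to 6 kb with libraries left out. The H3K4me3 length called higher, 4 kb, was 0 kb at both q thresholds, 2.5 kb with 500 base windows, 2 kb with 2 kb windows and with a gap of 50 points, and 5 to 35 kb with libraries left out. The length called lower, 7 kb, was 0 kb at both q thresholds, 2 kb at equal covered length and with a gap of 50 points, 20 kb with any gap, and 9 to 31 kb with libraries left out. Leaving a library out can only keep or add called windows, because fewer libraries then have to be apart by 25 points. The cause of the other changes was not tested.

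Replicate numbers did not pair the H3K9me3 libraries, since deviations from the group means correlated at 0.00394 between same-numbered libraries over all windows. For H3K4me3 the value was -0.000677, but file names contradict some of the labels it rests on, so it cannot settle the pairing. With the replicate block the H3K9me3 difference was 29.3 points, with p = 0.5 in an exact sign-flip test, the smallest this pairing allows, and 57 kb were called higher. Depth limits every value given, since a library with fewer reads yields fewer and shorter peaks at a fixed threshold, and the number of reads is unknown.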

Other observations

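Several peaks ended at nearly the same base in different libraries and for different marks, a pattern chosen after the values were seen. About 2.65 kb upstream of the ZEB1 start, H3K9me3 peaks ended at 31315842 in All gRNA replicate 1 and 31315878 in All gRNA replicate 2, and H3K4me3 peaks ended at 31315843 in the libraries labelled All gRNA replicate 1 and No gRNA replicate 2. About 13.6 kb upstream, H3K9me3 peaks ended at 31304900 and 31304904 in the All gRNA libraries, and a H3K4me3 peak ended at 31304845 in the library labelled No gRNA replicate 1. At 8.92 kb downstream, an H3K9me3 peak in No gRNA replicate 2 and a H3K4me3 peak in the library labelled No gRNA replicate 1 both ended at 31327411. How well reads can be placed at these positions was not measured here.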
